A study of Mus musculus with 2 samples.

Results

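The metallothionein and NRF2 stress genes described here are 10 mouse genes, *Mt1*, *Mt2*, *Hmox1*, *Nqo1*, *Gclm*, *Gclc*, *Txnrd1*, *Srxn1*, *Sqstm1* and *Nfe2l2*. They were chosen by name for their known role in defense against oxidants, electrophiles and metals, with earlier results of these data known. All 10 are among the 55573 genes listed in the deposited tables, of which 21374 had at least 1 read in either library. RNA-seq was performed on mesenteric arteries, which feed the intestine, from 10-week-old wild type C57BL/6 mice. A control library (5 mM K+) was compared with a library from arteries depolarized by 60 mM K+, with 60 min given for both treatments in the sample labels. Each condition is 1 library pooled from 2 mice, so no difference below has a replicate check, and the comparison addresses which genes differed between these libraries after depolarization. According to the study's methods, all perfusion solutions contained tetrodotoxin to silence autonomic nerves. The methods also describe control segments cut from the distal side after incubation without perfusion, before the remaining bed was perfused with 60 mM K+. The study's main text instead gives perfusion for both solutions. By the methods, segment, perfusion and time in solution cannot be told apart from K+.

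NRF2, encoded by *Nfe2l2*, is a transcription factor that the KEAP1 ubiquitin ligase adaptor holds at a low protein level. Oxidants and electrophiles modify KEAP1, NRF2 then escapes degradation, pairs with a small MAF protein and binds antioxidant response elements (AREs) in genes for glutathione synthesis, thioredoxin reduction, heme breakdown and quinone reduction. Metallothioneins are small cysteine-rich proteins that bind zinc and copper, and their genes are switched on by the zinc-sensing factor MTF-1 through metal response elements (MREs), and also by glucocorticoids. In arteries, HMOX1 is known for producing carbon monoxide and biliverdin from heme.

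The coding sequences of *Mt1* and *Mt2* are shown because these neighboring genes encode closely related proteins but had very different read counts. Capitals mark the 38 bases that differ between them.
Mt1: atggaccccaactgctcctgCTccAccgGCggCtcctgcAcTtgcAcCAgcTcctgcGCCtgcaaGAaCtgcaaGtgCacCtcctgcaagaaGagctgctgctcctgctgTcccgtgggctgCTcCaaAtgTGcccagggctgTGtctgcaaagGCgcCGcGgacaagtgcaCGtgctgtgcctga
Mt2: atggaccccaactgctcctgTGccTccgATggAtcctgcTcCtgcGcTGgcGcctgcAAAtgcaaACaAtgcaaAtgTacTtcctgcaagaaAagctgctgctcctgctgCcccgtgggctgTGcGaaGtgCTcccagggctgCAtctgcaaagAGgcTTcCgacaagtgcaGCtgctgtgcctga
Both sequences are 186 bases long, 79.6% identical, and hold 20 cysteine codons among 61 amino acid codons. They were read from GENCODE vM1 transcripts on mm9 (NCBIM37). The longest run of bases shared by the 2 transcripts was 20 bases.

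*Mt1* (ENSMUSG00000031765) was the most abundant of the 10 genes in both libraries. Its reads numbered 6858 in 5 mM and 15036 in 60 mM K+, or 0.0654% and 0.133% of all gene reads. Its deposited FPKM, the level per length of gene and per sequencing depth, was 866 in the control and rose to 1762, rank 73 and rank 38 among all listed genes. With library sizes adjusted by TMM, the trimmed-mean method of edgeR, log2(fold-change) of 60 mM over 5 mM K+ (LFC) was 1.23. Its 95% exact (Clopper-Pearson) counting interval was 1.19 to 1.28. All such intervals cover counting error only, and not the spread between mice. *Mt1* lies on mm9 chromosome 8 from 96702989 to 96704225 and shares no exonic base with another annotated gene.

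*Mt2* (ENSMUSG00000031762), which lies 5522 bases before *Mt1* on the same strand (chromosome 8, 96696518 to 96697467), was listed with only 1 read in 5 mM K+ and 3 in 60 mM K+. Its FPKM was 0.212 and 0.591. Both counts are at or under a floor of 3 counts, so no fold change is given for *Mt2*, and a change was not detectable from these counts. The listed level of *Mt2* was thus far below that of *Mt1* on a per-length scale in both libraries. In GENCODE vM1 no other gene overlaps *Mt2*, and no other place in mm9 matched its transcript over at least 100 bases at 95% identity. The annotation used for counting is not given in the sources used here, and 22972 of the listed identifiers are not in GENCODE vM1. Whether reads of *Mt2* were lost in counting was not tested. *Tagln*, a smooth muscle marker, was also listed with few reads (314 and 387) beside *Acta2*, another marker of these cells (187183 and 199779).

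**Figure D1:**
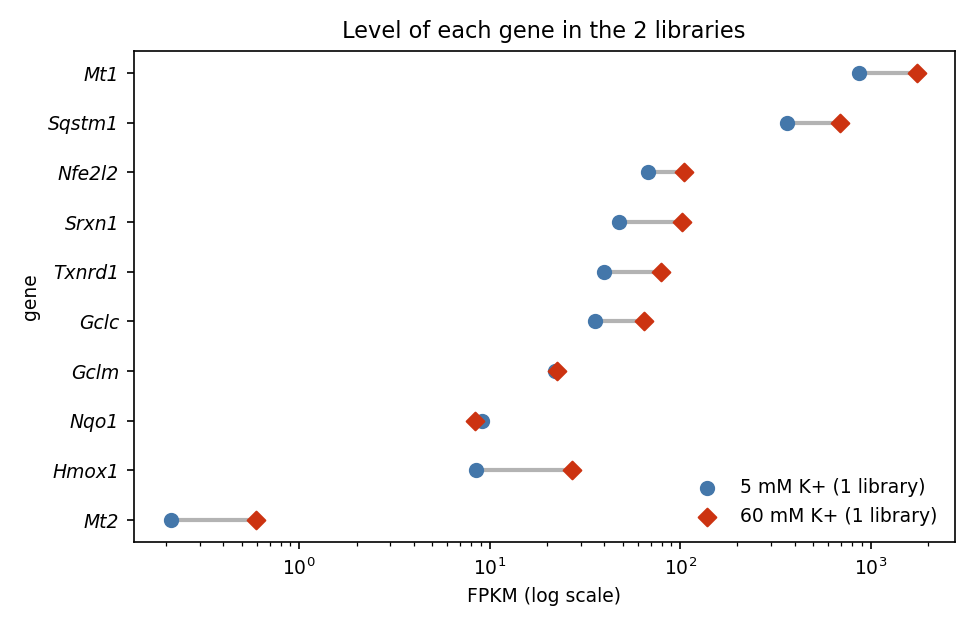
FPKM of the 10 genes in the 5 mM K+ library (circles) and the 60 mM K+ library (diamonds) on a log axis, with 1 library per condition and FPKM as deposited, scaled by total reads. *Mt1* and *Sqstm1* are highest in both libraries, *Mt2* is under 1 FPKM in both, and only *Nqo1* lies lower in 60 mM K+ on this scale.

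A gene was called when the random-sampling test of DEGSeq, recomputed on the reads with Benjamini-Hochberg adjustment, gave a q-value below 0.005 and the TMM-scaled fold change exceeded 2 in either direction. The test compares the 2 libraries and not the conditions. By this rule 6 of the 10 genes were called higher in 60 mM K+ and 0 were called lower: *Mt1*, *Hmox1*, *Gclc*, *Txnrd1*, *Srxn1* and *Sqstm1*. Among all 21374 genes with a read, 2.11% were called higher and 1.1% lower. For the 10738 genes whose libraries summed to 100 reads or more (a minimum set with the results in view), the shares were 3.06% and 0.81%. The median LFC was 1.13 over 9 of the genes, leaving out *Mt2* with under 10 reads, and -0.0047 over all 14829 genes that reach this minimum. Because the 10 genes were chosen with earlier results known, their contrast with all genes is a description and not a test. *Mt1*, *Txnrd1*, *Srxn1* and *Sqstm1* are also on the study's own list of differentially expressed genes from these libraries, so their calls here are not independent evidence. *Hmox1* and *Gclc* are not on that list. Nor are *Gsta3*, *Gdf15*, *Osgin1*, *Chac1*, *Asns*, *Ddit3*, *Lcn2*, *Kdr* and the pancreatic and adipocyte markers that were called here. At the same thresholds the study's list is far shorter than the 452 genes higher and 235 lower called here. For *Mt1*, *Txnrd1*, *Srxn1* and *Sqstm1* its q-values are larger than those found here. DEGSeq itself was not run here, and the q-values and calls given are not those of the study.

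These calls depended on library scaling. With total read counts in place of TMM every LFC is lower by 0.21, and 3 of the 10 genes were called higher, *Mt1*, *Hmox1* and *Srxn1*. Scaled on the reads of *Ppia* and *Hprt*, the reference genes of the study's qPCR, every value is lower by 0.51 and only *Hmox1* was called. Over all genes, 452 were called higher and 235 lower with TMM, 307 and 542 with total counts, and 174 and 1563 on *Ppia* and *Hprt*. With edgeR's exact test and the biological variation set at a coefficient of 0.1, 6 of the 10 genes were called, beside 349 genes higher and 58 lower in all. At 0.2, 0 of the 10 were called, beside 65 higher and 8 lower in all.

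**Figure D2:**
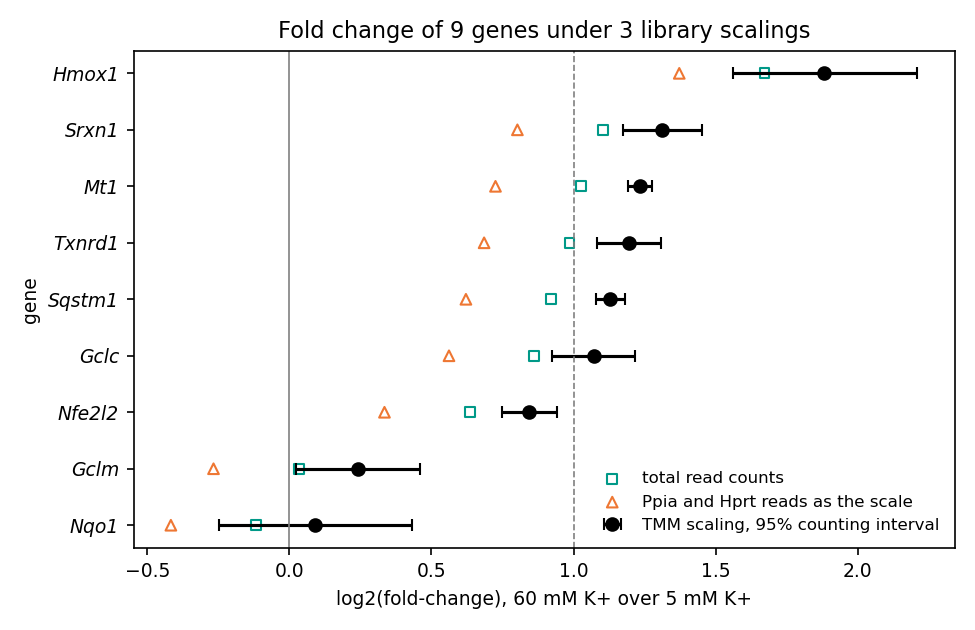
log2(fold-change) of all 10 genes except *Mt2*, with TMM scaling and its 95% counting interval (circles and bars), with total read counts (squares) and with *Ppia* and *Hprt* as the scale (triangles). The dashed line marks a fold change of 2. *Hmox1* lies right of it under all 3 scalings, *Nfe2l2*, *Gclm* and *Nqo1* under none.

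*Hmox1* (ENSMUSG00000005413; chromosome 8, 77617490 to 77624495), the inducible heme oxygenase, had the largest fold change of the 9 genes. The control library held 104 of its reads and the depolarized library 357, and its FPKM went from 8.47 to 27.0. LFC reached 1.88 (interval 1.56 to 2.21), and 0.577% of the genes with at least 100 reads had a higher value. *Hmox1* can be raised by heme and is high in some macrophages. The 7 red blood cell markers together had 908 and 538 reads, with 0 called and *Slc4a1* at 0. The 9 macrophage markers together had 623 and 537 reads, with 0 called. Single macrophage markers lay on either side of 0, from *Lyz2* (160 and 87 reads, LFC -0.78) to *Fcer1g* (22 and 39 reads, LFC 0.93). The part of these cells in the value of *Hmox1* was not tested. The constitutive heme oxygenase *Hmox2* had 255 and 238 reads, an LFC of 0.00 (interval -0.26 to 0.26).

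*Nqo1* (ENSMUSG00000003849; chromosome 8, 109912125 to 109927106), which reduces quinones and is commonly read as an NRF2 target, had nearly equal counts, 148 and 147 reads. At an LFC of 0.09 (interval -0.25 to 0.43), no change was detectable at this depth, and with total counts the value was -0.12. The ratio of the fold change of *Hmox1* to that of *Nqo1* was 3.45, with an exact 95% interval of 2.49 to 4.80. This ratio does not depend on how the libraries are scaled.

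*Gclc* and *Gclm* encode the catalytic and the modifier subunit of glutamate-cysteine ligase, which catalyzes the rate-limiting step of glutathione synthesis. *Gclc* (ENSMUSG00000032350; chromosome 9, 77602342 to 77642292) rose from 587 to 1149 reads, from 35.6 to 64.7 FPKM. Its LFC of 1.07 had an interval of 0.93 to 1.22, which reaches below the threshold for a call. *Gclm* (ENSMUSG00000028124; chromosome 3, 121948475 to 121972902), which overlaps Gm17494 on the opposite strand over 5.76% of its exonic bases, had 333 and 367 reads, with close FPKM values in both libraries. The LFC of 0.24 (interval 0.02 to 0.46) did not pass the call rule, and on *Ppia* and *Hprt* the value was -0.27. For *Gclc* over *Gclm* the ratio of fold changes was 1.78 (interval 1.48 to 2.13), again independent of scaling. The subunits of this enzyme thus differed in fold change by more than counting error.

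The thioredoxin and sulfiredoxin genes had closely spaced values. *Txnrd1* (ENSMUSG00000020250; chromosome 10, 82296696 to 82360469), the cytosolic thioredoxin reductase, rose from 951 to 2028 reads and from 39.9 to 79.0 FPKM. This gave an LFC of 1.19 (interval 1.08 to 1.31). *Srxn1* (ENSMUSG00000032802; chromosome 2, 151931252 to 151937112), which repairs over-oxidized peroxiredoxins, rose from 604 to 1397 reads and from 47.6 to 102 FPKM. Its LFC was 1.31 (interval 1.17 to 1.45). The ratio of the 2 fold changes was 1.08, with an interval of 0.958 to 1.23, so a difference between them was not detectable. *Txnrd2*, the mitochondrial reductase, had 109 and 99 reads (LFC -0.04, interval -0.44 to 0.37).

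*Sqstm1* (ENSMUSG00000015837; chromosome 11, 50012868 to 50024329) encodes p62, an autophagy receptor that also binds KEAP1. It was the second most abundant of the 10 genes, rising from 4654 to 9494 reads and from 363 to 688 FPKM. Its LFC was 1.13 (interval 1.08 to 1.18). In GENCODE vM1, 17.3% of its exonic bases overlap 3010026O09Rik on the opposite strand, which had 7 reads in each library. The libraries do not mark strand, so reads in this overlap cannot be assigned by strand. In addition, 11.9% of the *Sqstm1* transcript matched 1 other place in mm9. *Mt1* and *Sqstm1* together held 73.6% of the reads of the 10 genes in 5 mM K+ and 75.9% in 60 mM K+.

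*Nfe2l2* itself (ENSMUSG00000015839; chromosome 2, 75513570 to 75542698) had 1395 reads in the control and 2333 reads in the depolarized library, or 67.9 and 105 FPKM. Its LFC was 0.84 (interval 0.75 to 0.94), which missed the fold change needed for a call. *Keap1*, its repressor, had 355 and 295 reads (LFC -0.17, interval -0.39 to 0.06). The ratio of the *Nfe2l2* to the *Keap1* fold change was 2.01 (interval 1.70 to 2.39).

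**Figure D3:**
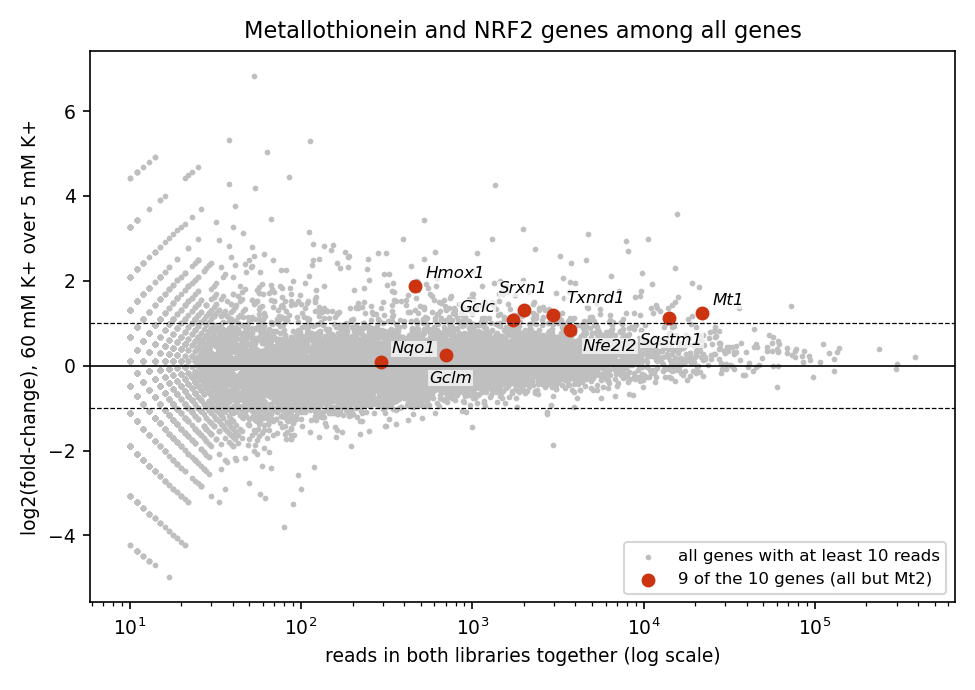
log2(fold-change) with TMM scaling against the reads of both libraries together (log axis) for all 14829 genes with at least 10 reads (grey) and 9 of the 10 metallothionein and NRF2 genes (red). Dashed lines mark 2-fold changes; 6 red points lie above the upper line, *Nfe2l2* lies just under it, and *Gclm* and *Nqo1* lie within the band of the other genes.

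Ranked by fold change, the 9 genes formed an order in which many neighbors had overlapping intervals. *Hmox1* stood first, and its interval lay above those of the other 8 genes. *Srxn1*, *Mt1* and *Txnrd1* followed with overlapping intervals, then *Sqstm1*, *Gclc*, *Nfe2l2*, *Gclm* and *Nqo1*. The ratio of fold changes was 1.07 (interval 1.03 to 1.12) for *Mt1* over *Sqstm1*. Counting intervals lay wholly above 0 for 8 of the 9 genes, and did so for 31.3% of all genes with at least 100 reads. Among the latter, 1.62% of genes had a higher LFC than *Srxn1*, 4.41% a higher one than *Nfe2l2* and 42.8% a higher one than *Nqo1*.

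To see whether the genes share sequence before their starts, the 250 bases before each start in RefSeq (GRCm38.p6) were searched on both strands, and each window was located by exact match on mm9. RefSeq windows were matched for 8 of the 10 genes; *Hmox1* and *Gclc* were not among them, and *Txnrd1* has 3 starts. The ARE core, TGACNNNGC or TGAGNNNGC, was found in 5 of the 8 genes. All 6 matches are shown on the strand that reads TGA first, with the core in capitals.
Srxn1, 45 bases before its start (chr2:151931205-151931233, + strand): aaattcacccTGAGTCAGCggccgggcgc
Srxn1, 158 bases before its start (chr2:151931092-151931120, - strand): ccagagaggaTGAGTCGGCtctcagtaga
Mt2, 79 bases before its start (chr8:96696429-96696457, + strand): aaagggggtgTGACTCAGCgcggggggtg
Txnrd1, 92 bases before 1 of its starts (chr10:82321849-82321877, - strand): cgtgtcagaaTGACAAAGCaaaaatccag
Gclm, 134 bases before its start (chr3:121948331-121948359, - strand): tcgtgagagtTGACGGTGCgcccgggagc
Nfe2l2, 240 bases before its start (chr2:75542942-75542970, - strand): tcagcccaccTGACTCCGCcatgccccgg
Of all 32851 RefSeq windows, 23% held at least 1 such core. This share is per window, while the count of 5 above is per gene, with *Txnrd1* matched at 1 of its 3 starts. Only 3.18% of windows held 2 or more, as that of *Srxn1* did. Genes with a core included called ones (*Srxn1*, *Txnrd1*) and uncalled ones (*Gclm*, *Nfe2l2*), and *Mt1*, *Sqstm1* and *Nqo1* had no match in these windows. The AP-1 motif TGACTCA was found in *Srxn1* 2 times and in *Mt2* 1 time, compared with 4.46% of all windows. In *Mt2* and at the nearer *Srxn1* site it lies inside the ARE core, so these letters belong to both motifs.

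The MRE core, TGCACNC or TGCGCNC, occurred 3 times in the window of *Mt2*, 2 times in that of *Gclm* and 1 time each in those of *Mt1* and *Srxn1*, and 21.4% of all windows held at least 1. The RefSeq starts of both metallothionein genes lie upstream of a TATAAA, which begins 122 bases into the *Mt1* transcript and 136 bases into that of *Mt2*. Between start and TATAAA each gene held 4 further MRE cores. This stretch was searched for the MRE core only, so whether *Mt1* or *Mt2* holds an ARE core or another of the motifs there was not tested. The full CRE, TGACGTCA, a site of CREB, was found in 0 of the 10 windows and in 1.55% of all windows. Shorter and nonclassic CRE forms, of which the study also counted nonclassic ones, were not searched, so absence of CREB sites cannot be read from this. Heat shock and glucocorticoid response elements, each searched in 1 form, were found in 0 of the 10 windows, and in 0.466% and 0.0609% of all windows. These are matches of letters near annotated starts, and distant enhancers were not searched.

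The lists of related genes are given on the TMM scale, and each value under 0.51 turns negative when set on *Ppia* and *Hprt*. Of all genes with at least 100 reads, 3.06% were called higher and 0.81% lower. In lists as short as these, 0 calls therefore do not set a list apart from all genes. Other genes known as NRF2 targets were described from a list of 38 genes outside the 10. Of these, 3 were called higher and 0 lower, and the 34 that reach 10 reads had a median LFC of 0.17. The 3 were *Gsta3*, a glutathione transferase, *Gdf15*, a stress-induced cytokine, and *Osgin1*, an oxidative stress-induced growth regulator. *Gsta3* rose from 175 to 462 reads (2.83-fold, LFC interval 1.25 to 1.76). *Gdf15* rose from 183 to 473 reads and *Osgin1* from 104 to 237 reads, with LFC of 1.47 and 1.29. *Slc7a11*, the cystine importer that feeds glutathione synthesis, had 0 reads and 1 read, and *Gpx2*, *Gstm3* and *Abcc2* had 0 reads in both libraries.

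Among the other glutathione genes, *Gss*, glutathione synthase, had 91 and 156 reads (LFC 0.88), *Gstp1* had 790 and 1018 reads (0.47), and *Gsr*, glutathione reductase, had 281 and 214 reads (LFC -0.29, interval -0.55 to -0.03). Thioredoxin itself, *Txn1*, had 1433 and 2107 reads, an LFC of 0.66. *Prdx6* had a value of 0.30 and *Prdx1* of 0.14. For the NADPH-producing enzymes the values were small, at 0.35 for *Pgd*, 0.29 for *Taldo1* and -0.19 for *Me1*. The ferritin heavy chain *Fth1* was the most abundant gene of the list with 19598 and 24674 reads (LFC 0.43). *Ftl1*, the ferritin light chain, had 363 and 479 reads (0.50), and 96% of its transcript matched other places in mm9, so its count is uncertain. The heme transporter *Slc48a1* was at 0.19. In the group of quinone and aldehyde enzymes, *Aox1* was at -0.63, *Aldh1a1* at 0.54 and *Cbr3* at -0.50. The export pumps *Abcc4* and *Abcc1* were at 0.06 and 0.05. None of these passed the call rule.

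Partners and antagonists of NRF2 included 0 called genes of 11, with a median of 0.39 over 10 genes. The small MAF genes *Mafk* and *Maff*, whose products pair with NRF2, came closest. *Mafk* had 3602 and 6571 reads (LFC 0.97, interval 0.91 to 1.03), and *Maff* had 3215 and 5828 reads (0.96, interval 0.90 to 1.02). *Mafg* had a lower value, 0.42. *Bach1*, which represses *Hmox1* and other NRF2 targets, had 649 and 775 reads (0.36), and *Cul3*, the scaffold of the KEAP1 ligase, had 673 and 863 reads (0.46), while its RING subunit *Rbx1* was at -0.06. The related factor *Nfe2l1* had 3677 and 3487 reads, an LFC of 0.02.

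Zinc transporters and the other genes of the MTF-1 response gave no calls. Of 18 genes, 0 were called in either direction and the median of 17 was -0.04. *Mtf1*, the zinc-sensing factor, had 194 and 212 reads (LFC 0.23, interval -0.06 to 0.52). *Slc30a1*, the zinc exporter that is a standard MTF-1 target, had 182 and 201 reads (0.24, interval -0.05 to 0.54). Among importers, *Slc39a14* was at 0.43, *Slc39a9* at -0.67 and *Slc39a10* at -0.43. Among exporters, *Slc30a6* was at -0.56, *Slc30a5* at -0.44 and *Slc30a7* at -0.32. *Mt3* had 10 and 4 reads and *Mt4* had 0 in both libraries.

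Antioxidant enzymes that were not placed on the list of NRF2 targets gave 0 called genes of 25 and a median of 0.23. *Sod2*, the mitochondrial superoxide dismutase, had 915 and 1252 reads (LFC 0.55), and *Sesn2* had 127 and 187 reads (0.66). The glutathione peroxidases *Gpx1* and *Gpx4* were at 0.58 and 0.57, and *Sesn1* was at -0.56. Among 11 autophagy receptors and ATG8 family genes, which act with p62, 0 were called and the median was 0.30. *Gabarapl1* was highest at 0.68, followed by *Map1lc3a* at 0.61 and *Map1lc3b* at 0.53, while the receptor *Nbr1* had 1434 and 1235 reads (-0.11).

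**Figure D4:**
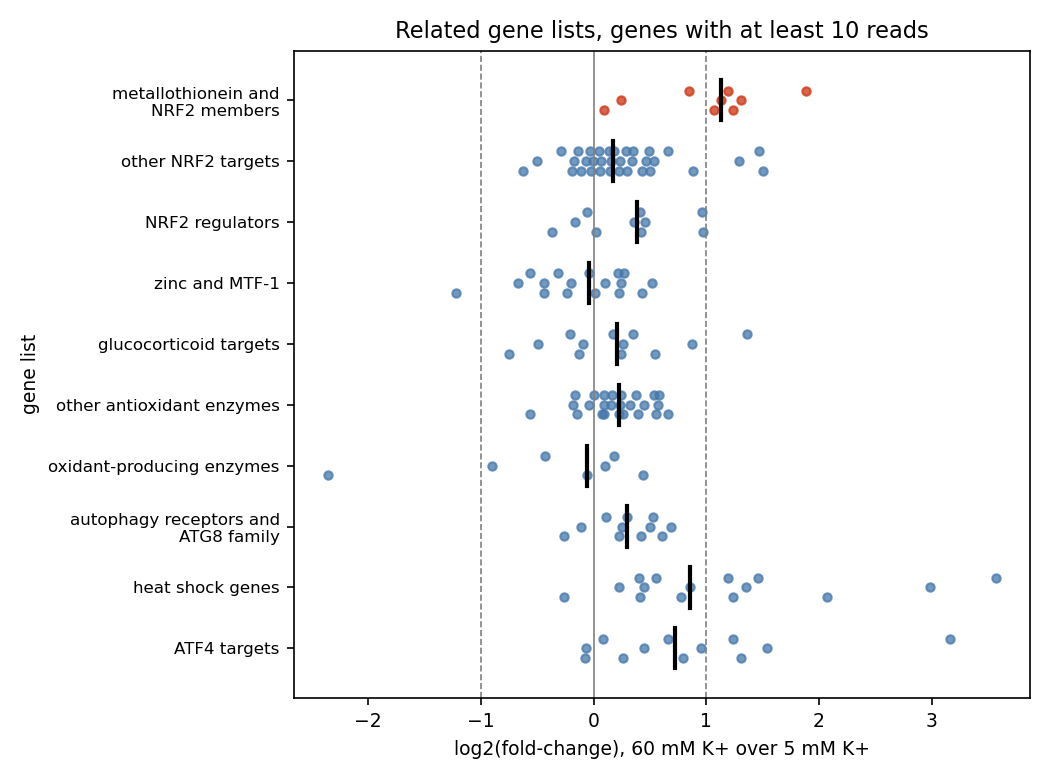
log2(fold-change) with TMM scaling for genes with at least 10 reads in each list, 1 point per gene, with the median as a black bar and 2-fold changes as dashed lines. Medians are 1.13 for the metallothionein and NRF2 genes, 0.85 for heat shock genes, 0.73 for the ATF4 list, which holds *Atf4* itself, and between -0.05 and 0.39 for the other lists.

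*Hmox1*, *Sqstm1* and the metallothioneins can also be induced by heat shock and other stress factors, and such genes differed between the same libraries. Of 15 heat shock genes 7 were called higher and 0 lower, with a median of 0.85. Of 13 genes on a list of ATF4 and its targets, 4 were called higher and 0 lower, with a median of 0.73, and *Atf4* itself is 1 of the 4. *Bag3*, a co-chaperone that acts with p62, rose from 2025 to 4313 reads (LFC 1.19), and *Hsph1* rose from 1041 to 2285 reads (1.24). The inducible chaperones *Hspa1b* (LFC 3.57), *Hspa1a* (2.98), *Dnajb1* (2.07), *Hspe1* (1.46) and *Hspb1* (1.36) rose as well, the first pair being near-identical copies whose reads are uncertain. *Chac1* (3.16), *Asns* (1.54) and *Ddit3* (1.31) were the called targets of ATF4. *Atf4*, a stress-responsive factor, rose from 2764 to 6074 reads (1.24). The part of heat shock and ATF4 signaling in the values of the 10 genes was not tested.

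In whole arteries, a different share of a cell type and a different amount of RNA per cell cannot be told apart. The tissue carried its defining smooth muscle markers, with LFC between -0.16 and 0.40 over 8 genes. Endothelial markers summed to 37752 and 47943 reads, a ratio of 0.45 on the log2 scale. Of these 8 markers, 7 had counting intervals wholly above 0. *Kdr*, the only called one, went the other way, from 168 to 73 reads (LFC -1.10). Fibroblast markers summed to 66581 and 56540 reads, a ratio of -0.13. Pancreatic acinar markers had 137 and 459 reads, with 5 of 8 called higher and *Amy2a5* at 0. Adipocyte markers had 2014 and 1370 reads, with 3 of 7 called lower. Their part in the values of the metallothionein and NRF2 genes was not tested. In all, gene reads totalled 10480918 in 5 mM K+ and 11289598 in 60 mM K+.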

How the data were processed

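Poly(A) libraries were made with a kit that does not mark strand. TopHat2 and mm9 served for alignment, and raw counts per gene were deposited by the authors. The submitters' processing notes name TopHat2 2.0.12, HTSeq 0.6.1 and edgeR 3.0.8, without their settings. The FPKM values were deposited by the authors as well and were scaled by total counts, since counts divided by FPKM gave 1 constant ratio between the libraries, 1.08. Effective library sizes came from TMM (edgeR 4.0.16, R 4.3.3). The random-sampling test that DEGSeq describes was recomputed from its formula over 21374 genes, with 0 reads set to 0.5, and the script was tested on simulated data. Thresholds are those of the study, which scaled with edgeR by a factor whose kind it does not name. Its listed fold changes for *Mt1*, *Txnrd1*, *Srxn1* and *Sqstm1* equal the TMM values here at the digits it prints.

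Symbols and positions are from GENCODE vM1, which holds 32601 of 55573 identifiers and 99.09% and 99.15% of the reads of the control and depolarized library. Of 240 symbols on the lists, 2 were matched by an older name. The 10 genes and the lists were chosen with earlier results of these data known. Named genes outside the 10 are the regulators of NRF2 and MTF-1, called genes and, per list or role, those of largest fold change with at least 50 reads; *Gsr*, *Hmox2*, *Txnrd2*, *Sod2*, *Sesn1*, *Nbr1*, *Nox4*, *Fkbp5*, *Tsc22d3*, *Zbtb16* and genes with under 20 reads were added, as was the *Mt1* to *Sqstm1* ratio, after their values were seen. Some genes of the lists are not reported here by name. Alternatives were 4 other scalings (median-of-ratios from DESeq2 1.42.0), 2 minimum counts, the binomial test in exact form, edgeR with an assumed variation, other call rules and FPKM with pseudocounts of 0.1 and 1.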

Additional observations from a re-analysis of the deposited data

How the results depend on the processing

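Of the 10 genes, 6 were called higher with TMM, 3 with total read counts, 1 with *Ppia* and *Hprt* as the scale, and 0 and 0 with an assumed coefficient of variation of 0.2 and 0.4. By construction, scaling shifts all values alike and assumed variation widens the test. Counts lay between 5 and 7 under the other alternatives, and 0 genes were called lower under any. The count of 7 came from the fold threshold alone and includes *Mt2*, whose 1 and 3 reads allow no fold change. The median log2(fold-change) of 1.13 became 0.92 with total counts, 0.62 with *Ppia* and *Hprt*, and 0.92 and 0.92 with FPKM and pseudocounts of 0.1 and 1. The sign of *Nqo1* turned with total counts (-0.12), and the signs of *Nqo1* (-0.42) and *Gclm* (-0.27) turned with *Ppia* and *Hprt*. The minimum of 100 reads was chosen after seeing the data. No paired analysis was possible because only 1 library stood for each K+ concentration, and no replicate could be left out. Low listed counts limit *Mt2*, *Nqo1* and *Hmox1* most, by the width of their intervals.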

Other observations

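Metallothioneins are also glucocorticoid targets, and a list of 12 genes of that response had values on either side of 0. Only *Lcn2*, which is also an inflammatory gene, was called higher, from 40 to 96 reads, and 0 were called lower. The standard glucocorticoid targets *Fkbp5* and *Tsc22d3* had a log2(fold-change) of 0.17 and -0.21, *Zbtb16* had -0.49, *Pdk4* -0.75 and *Cebpd* 0.87.

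Enzymes that produce oxidants gave 0 called genes of 12 in either direction. Among all genes with a read, 2.11% were called higher and 1.1% lower, so 0 calls do not set this short list apart. *Nox4*, the NADPH oxidase of vascular cells, had 3003 and 2695 reads (log2(fold-change) -0.05, counting interval -0.13 to 0.02), and *Cyba*, its membrane partner, had 427 and 538 reads (0.43). *Xdh*, xanthine dehydrogenase, was at 0.18. *Nox1* had 0 reads in both libraries, and *Cybb*, the phagocyte oxidase, had 11 and 2 reads.

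The reference genes of the study's qPCR, *Ppia* and *Hprt*, had log2(fold-change) of 0.51 (counting interval 0.47 to 0.55) and 0.47 (counting interval 0.31 to 0.63) on the TMM scale. A fold change of 2 on the TMM scale thus has another size when set against these genes. Which scale is nearer to RNA per cell was not tested.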
